A study of Caenorhabditis elegans with 12 samples.

Results

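The 8 genes described here, *hsp-60*, *atfs-1*, *dve-1*, *ubl-5*, *haf-1*, *clpp-1*, *lonp-1* and *spg-7*, belong to the mitochondrial unfolded protein response (mtUPR) of *Caenorhabditis elegans*. They were chosen by symbol, as the 8 of 46934 genes of the read count table that carry these names, and each name matched 1 gene. RNA of whole animals on day 1 of adulthood, fed *Escherichia coli* OP50 and raised at 20 °C, was sequenced in 4 groups of 3 libraries. The groups were *hsf-1*(*sy441*) mutants after heat shock, *hsf-1*(*sy441*) mutants without treatment, wild-type (N2) animals after heat shock and N2 animals without treatment. Heat shock was 30 min at 35 °C, followed by 1 h at 20 °C before RNA was isolated. HSF-1 is the transcription factor that drives the cytosolic heat shock response, and the *sy441* product is thought to lack its transactivation domain, so the animals keep a shortened protein and are not a null. The libraries hold poly-A RNA of all tissues, the germ line and embryos in the uterus, and the question put to the 8 genes is whether their transcripts differed with HSF-1 deficiency, with heat shock or with both.

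The mtUPR is a signal from mitochondria to the nucleus that raises the folding and proteolytic capacity of the organelle when unfolded proteins accumulate in its matrix. In *C. elegans*, ATFS-1, a bZIP transcription factor, is normally imported into mitochondria and degraded there, and it enters the nucleus when import fails. The homeodomain protein DVE-1 and the ubiquitin-like protein UBL-5 act together in the nucleus in the same response. On the mitochondrial side, CLPP-1 (the matrix protease ClpP) cuts unfolded proteins into peptides and HAF-1, an ABC transporter, exports such peptides. LONP-1 (Lon) is another matrix protease, SPG-7 is a subunit of the inner membrane m-AAA protease, and HSP-60 is the matrix chaperonin whose gene is a standard reporter of the response. Much of this regulation acts on where a protein is, which transcript levels do not show.

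Total counts ran from 68188334 to 109248499 per library, and the 8 genes were among the 17946 that had enough counts to be tested. The mutant and N2 libraries fell apart along the first principal component (34.4% of the variance), and 2 N2 libraries lay far from the rest of their groups along the second (17%). There N2 control replicate 3 was at 62.9, against -71.8 and -59.7 for the other untreated N2 libraries, and N2 heat shock replicate 1 was at 80.1, against -9.71 and -5.86 for the other heat-shocked N2 libraries. The mutant groups were spread along it too, between -48.5 and 61.4. The share of ribosomal RNA was 7.41% in replicate 1 of the untreated mutants, 7.34% in replicate 1 of the heat-shocked mutants and 1.01% to 4.21% elsewhere. The heat treatment was visible in *hsp-16.2*, a small heat shock protein gene, with 196, 95.9 and 138 CPM in heat-shocked mutants, against 0.904, 2.41 and 2.38 CPM in untreated mutants. It had 943, 506 and 518 CPM in heat-shocked N2, against 4.54, 5.53 and 8.23 CPM in untreated N2. The mutated gene itself, *hsf-1*, averaged 92.9 ± 14.0 CPM in untreated mutants and 122.6 ± 47.8 CPM in untreated N2 (SD, n = 3 each), which does not check the labels because the allele alters the product and leaves a transcript. CPM here are counts relative to the library total, scaled by the TMM method of edgeR, and values are given in the order of replicates 1, 2 and 3. The replicates are labelled biological, but whether they are separate cultures is not stated. The p-values therefore reflect only how far these samples differ from each other, part of which may be technical.

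The genes are spread over 6 chromosomes of the WBcel235 build and all are protein coding. *hsp-60* (WBGene00002025) lies on chromosome III from 1619742 to 1625803 on the plus strand. *atfs-1* (WBGene00013878) lies on chromosome V from 14193663 to 14197700 (plus), *haf-1* (WBGene00001811) on IV from 17376427 to 17379310 (plus) and *dve-1* (WBGene00022861) on X from 427035 to 433812 (minus). *clpp-1* (WBGene00014172) lies on II from 10300714 to 10302842 (minus). Chromosome I carries *ubl-5* (WBGene00006726, from 5607826 to 5608841, minus), *lonp-1* (WBGene00016391, from 10676922 to 10682374, minus) and *spg-7* (WBGene00004978, from 3467132 to 3478517, plus). *ubl-5* is by far the shortest, with 327 bp of annotated exon, against 791 bp for *clpp-1* and 1926 bp to 3319 bp for the other genes.

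Per kilobase of exon, the transcripts of the 8 genes differed widely in abundance. Averaged over the 12 libraries, the chaperonin *hsp-60* was highest with 212 CPM per kb, followed by *ubl-5* with 171 CPM per kb. The proteases and ATFS-1 formed a middle group, with 64.5 CPM per kb for *clpp-1*, 55.2 for *atfs-1*, 42.3 for *lonp-1* and 39.9 for *spg-7*. The transporter *haf-1* (4.44 CPM per kb) and the transcription factor *dve-1* (4.13 CPM per kb) were the lowest. The spread of each gene over the libraries was uneven as well. The highest library had 7.28 times the CPM of the lowest for *ubl-5* and 5.81 times for *dve-1*, but only 1.73 to 2.23 times for the other 6 genes.

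**Figure D1:**
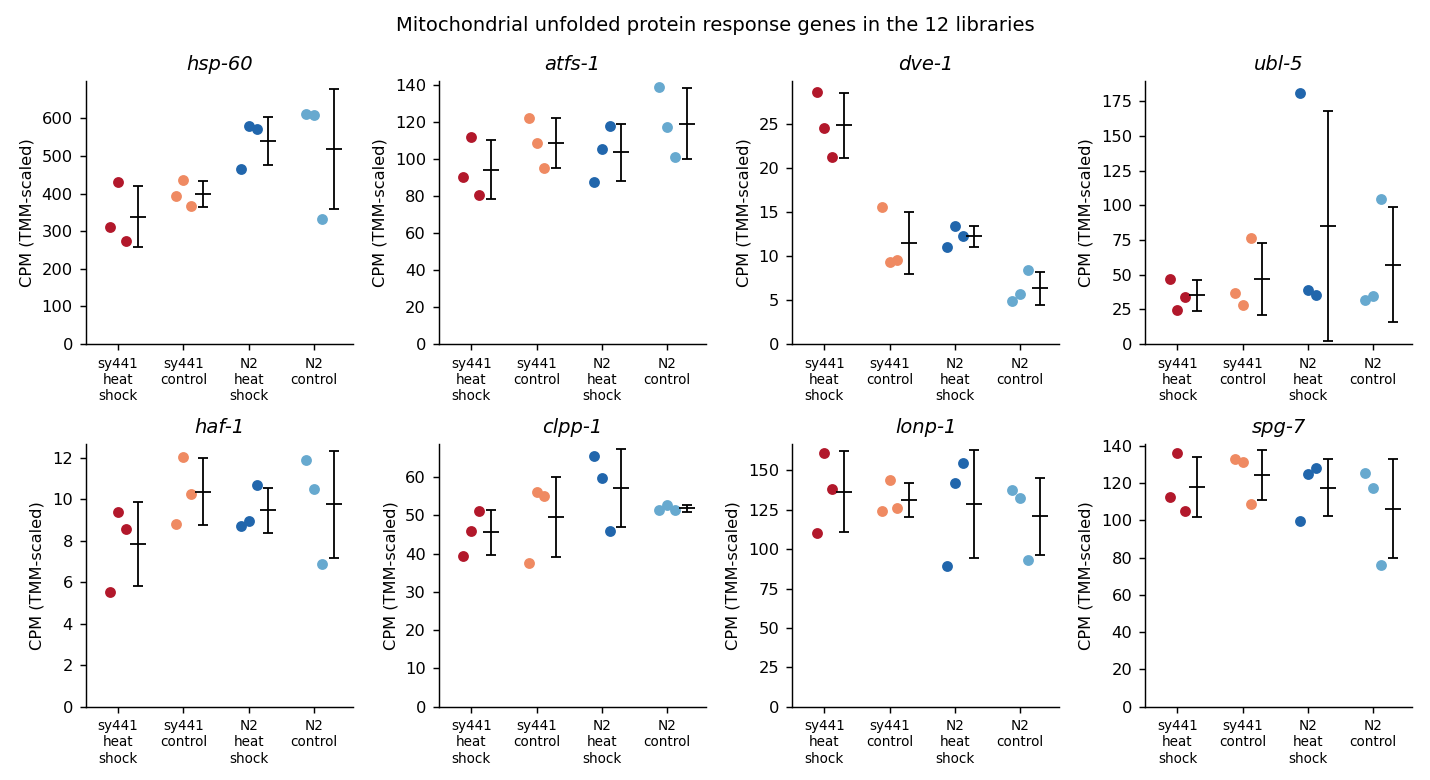
TMM-scaled CPM of the 8 genes, 1 panel per gene with its own axis from 0, for *hsf-1*(*sy441*) heat shock, *hsf-1*(*sy441*) control, N2 heat shock and N2 control; dots are libraries and bars are means ± SD (n = 3). *dve-1* shows a step with each factor, between 4.93 and 28.6 CPM, while the *ubl-5* panel is set by N2 heat shock replicate 1 (181 CPM) and N2 control replicate 3 (105 CPM).

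Across the 4 comparisons between groups, *dve-1* alone of the 8 had libraries that separated in every one, though edgeR called it in none. It had 28.6, 24.5 and 21.2 CPM in heat-shocked mutants (24.8 ± 3.70, SD, n = 3) and 15.6, 9.29 and 9.54 CPM in untreated mutants (11.5 ± 3.55). It had 11.03, 13.4 and 12.3 CPM in heat-shocked N2 (12.2 ± 1.18) and 4.93, 5.62 and 8.43 CPM in untreated N2 (6.32 ± 1.86). The heat-shocked mutants were thus the highest group and untreated N2 the lowest, with no overlap between either and any other group. Of the 17946 tested genes, 97 (0.541%) were likewise higher without overlap in all 4 comparisons. The 2 groups in between, heat-shocked N2 and untreated mutants, overlapped. These levels rest on 373 to 1908 reads per library, so counting error is small beside the spread between replicates. In RNA of whole animals, more cells that express *dve-1* and more of its RNA per cell cannot be told apart, and this holds for every gene below.

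At 20 °C, in animals without any heat, *dve-1* was 1.81-fold higher in the mutants than in N2 (log2 fold change 0.86, standard error 0.27, 95% interval 0.27 to 1.44), with an unadjusted p of 0.00740 and an edgeR adjusted p of 0.0734. It was therefore not called at the threshold of 0.05 after Benjamini-Hochberg adjustment over all genes. None of the 8 genes was called by edgeR's quasi-likelihood test in this comparison, in which 6.83% of all tested genes were. At an unadjusted p under 0.05 the test picked *dve-1* alone of the 8, beside 24.6% of all genes, and DESeq2 called *dve-1* alone (adjusted p = 0.0465), beside 13.2% of all genes. Complete separation of the mutant and N2 libraries with the mutants higher, seen for *dve-1*, was found for 20.9% of all genes. The estimate depended on 1 library on each side. Without sy441 control replicate 1 it was 0.40 (edgeR adjusted p = 0.439), and without N2 control replicate 3 it was 1.15 (edgeR adjusted p = 0.0299). The 8 genes had a median log2 fold change of 0.01, against 0.13 over all genes tested.

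In both genotypes every heat-shocked library had more *dve-1* than every untreated one. In the mutants the heat-shocked libraries were 2.16-fold above the untreated ones (log2 fold change 1.11, 95% interval 0.53 to 1.70, unadjusted p = 0.00122, edgeR adjusted p = 0.109, DESeq2 adjusted p = 0.00350). In N2 the ratio was 1.93 (log2 fold change 0.95, 95% interval 0.36 to 1.54, unadjusted p = 0.00382, edgeR adjusted p = 0.174, DESeq2 adjusted p = 0.0358). In neither genotype was any of the 8 genes called by edgeR, beside 0.568% of all genes in the mutants and 1% in N2. *dve-1* alone of the 8 was picked at an unadjusted p under 0.05, beside 6.82% and 7.88% of all genes in the mutants and in N2, and it alone was called by DESeq2, beside 2.1% and 2.73%. The share of all genes whose heat-shocked libraries lay completely above the untreated ones, as those of *dve-1* did, was 5.37% in the mutants and 8.19% in N2.

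The call of *dve-1* in the heat-shocked mutants changed with how the libraries were matched. Same-numbered libraries of the treated and untreated mutants deviated from their group means together (correlations of 0.551, 0.504 and 0.320), so the numbers were taken as pairs. With the replicate number as a block in a fit of the 6 mutant libraries, *dve-1* was called (log2 fold change 1.16, edgeR adjusted p = 0.00681), in a fit that called 3.61% of all genes. The same libraries gave an adjusted p of 0.0809 without the block, and the block in the fit of all 12 libraries gave 0.152.

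Between the heat-shocked groups, *dve-1* was again higher in the mutants, 2.03-fold (log2 fold change 1.02, unadjusted p = 0.00231, edgeR adjusted p = 0.0683, DESeq2 adjusted p = 0.00909). None of the 8 genes was called by edgeR here, beside 2.7% of all genes, and DESeq2 called *dve-1* alone, beside 7.84%. The libraries of *dve-1* separated completely with the mutants higher, as did those of 18% of all genes. At an unadjusted p under 0.05 the test picked 2 of the 8, *dve-1* as higher and *hsp-60* as lower, beside 18.8% of all genes. The effect of heat shock did not differ detectably between the genotypes. The interaction, the log2 effect of heat in the mutants minus that in N2, was 0.16 for *dve-1*, with a 95% interval of -0.66 to 0.98. That interval leaves room for an effect up to 1.98-fold larger in the mutants. None of the 8 genes was called in the interaction by edgeR or DESeq2 or picked at an unadjusted p under 0.05, beside 0.0111%, 0.148% and 2.54% of all genes.

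Since the effects of genotype and of heat on *dve-1* each appeared in 2 pairs of the same groups, they were also averaged over the other factor, a contrast added after the data had been seen and built on the same libraries. Averaged over both genotypes, *dve-1* was called higher after heat shock, 2.05-fold (log2 fold change 1.03, 95% interval 0.62 to 1.45, edgeR adjusted p = 0.00991), as the only one of the 8, beside 2.84% of all genes. Averaged over both treatments, it was called higher in the mutants, 1.92-fold (log2 fold change 0.94, 95% interval 0.52 to 1.35, edgeR adjusted p = 0.00539), again as the only one, beside 20.5% of all genes. The first call held in 20 of 21 alternative analyses and was lost without sy441 control replicate 2 (edgeR adjusted p = 0.0557). The second held in all 21.

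Marker genes of several tissues moved with genotype, and their part in the results of *dve-1* and the other genes was not tested. Over all genes, edgeR called 6.24% higher and 0.591% lower in the mutants at 20 °C, the share beside each list here. Of 45 tested sperm markers, 32 were called higher in the mutants at 20 °C. Their summed levels were 177 to 408 CPM in untreated mutants, against 3.90 to 29.5 CPM in untreated N2. Of 9 intestine markers, 3 were called higher. Their sums were 62093, 27467 and 25403 CPM in untreated mutants, against 21484, 22312 and 7434 CPM in untreated N2. In each of these groups a lone library lay far from the other 2, and those others differed less between the groups. Of 7 body wall muscle markers, 3 were called higher, with sums of 1774 to 2446 CPM in untreated mutants, against 731 to 1219 CPM in untreated N2. The sums of germ line markers overlapped, with 7388 to 8490 CPM in untreated mutants and 4056 to 11419 CPM in untreated N2, and 0 of 11 were called. At 20 °C edgeR called 1 of 5 pharynx markers higher, 0 of 7 neuron markers and 0 of 6 hypodermis markers, with medians of 0.43, -0.01 and -0.12. At an unadjusted p under 0.05, 2 neuron markers were higher, and 1 hypodermis marker was higher and 1 lower. Over all genes, 18.1% were higher and 6.51% lower at that threshold. With heat shock the intestine sums overlapped in both genotypes, with 24931 to 43618 CPM in heat-shocked mutants and 11716 to 26564 CPM in heat-shocked N2.

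**Figure D2:**
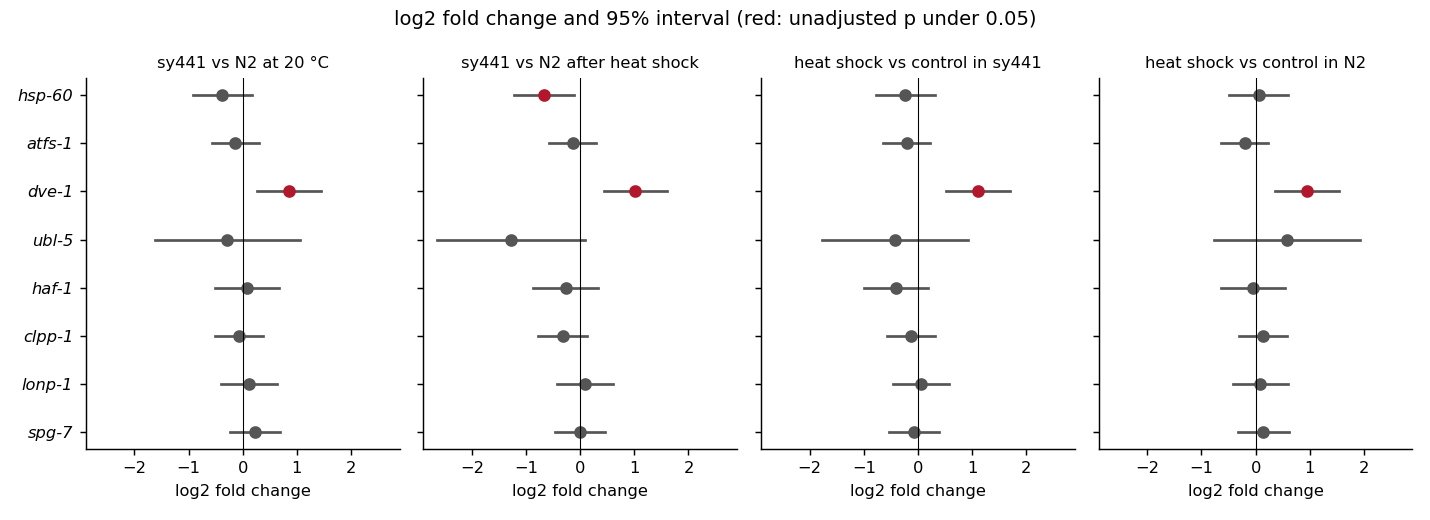
Log2 fold changes of the 8 genes with 95% intervals in the 4 comparisons between groups, from the edgeR fit of all 12 libraries. Red marks an unadjusted p under 0.05 and the thin solid line is no change. The interval of *dve-1* lies above 0 in all 4 panels and that of *hsp-60* below 0 in mutants against N2 after heat shock, while the *ubl-5* intervals are the widest.

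*hsp-60* had lower means in the mutants than in N2 under both treatments, and only the heat-shocked groups separated. It had 311, 432 and 274 CPM in heat-shocked mutants (339 ± 82.2, SD, n = 3) and 393, 437 and 368 CPM in untreated mutants (399 ± 34.7). It had 466, 579.9 and 572 CPM in heat-shocked N2 (539.5 ± 63.6) and 612, 609.6 and 333 CPM in untreated N2 (518 ± 160.1). Among the heat-shocked animals every mutant library lay below every N2 library, as for 11.1% of all genes. Among the untreated ones the groups overlapped because N2 control replicate 3 was lower than all 3 mutant libraries. After heat shock the mutants had 0.628 times the N2 level (log2 fold change -0.67, 95% interval -1.22 to -0.12, unadjusted p = 0.0203), which was not called (edgeR adjusted p = 0.180). At 20 °C the difference was -0.38 on the log2 scale (95% interval -0.92 to 0.17, edgeR adjusted p = 0.402).

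The *hsp-60* estimate moved with single libraries. After heat shock it ran from -1.04 without sy441 heat shock replicate 2 to -0.53 without sy441 heat shock replicate 3, neither called. Without the 2 N2 libraries that lay apart, N2 control replicate 3 and N2 heat shock replicate 1, an omission chosen after seeing the data, *hsp-60* was called lower in the mutants at 20 °C (log2 fold change -0.61, edgeR adjusted p = 0.0400) and after heat shock (-0.77, edgeR adjusted p = 0.0312). That omission also raised the share of all genes called, to 12.9% at 20 °C and 3.68% after heat shock. Averaged over both treatments, *hsp-60* had 0.696 times the N2 level in the mutants (log2 fold change -0.52, 95% interval -0.91 to -0.14, edgeR adjusted p = 0.0553) and was called in 9 of 21 alternative analyses, the replicate block among them (edgeR adjusted p = 0.0451). That contrast called 20.5% of all genes in the fit reported, 19.1% with the replicate block and 25.9% under DESeq2. Heat shock was followed by no detectable difference in *hsp-60* in either genotype. The log2 fold change was -0.24 in the mutants (95% interval -0.78 to 0.31) and 0.06 in N2 (-0.49 to 0.60), both at an edgeR adjusted p of 1, and the value in N2 was below 0 in some alternatives.

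The gene next to *hsp-60*, *Y22D7AL.10*, encodes the homolog of the co-chaperonin HSP10, which closes the HSP-60 folding chamber. It starts on the opposite strand, 812 bp away. It had 206, 226 and 207 CPM in heat-shocked mutants and 196, 316 and 263 CPM in untreated mutants, against 333, 309 and 267 CPM in heat-shocked N2 and 345, 332 and 305 CPM in untreated N2. Its heat-shocked mutant libraries lay below all N2 libraries. For 11.1% of all genes they lay below the heat-shocked N2 libraries. The difference after heat shock was -0.51 on the log2 scale (unadjusted p = 0.0234, edgeR adjusted p = 0.191), and that averaged over both treatments was -0.42 and was called (edgeR adjusted p = 0.0470), a call held in 16 of 21 alternatives and lost, among others, with the replicate block. Over the 12 libraries its log2 CPM correlated with that of *hsp-60* at 0.668, a description of libraries that share their groups. *hsp-6*, the gene of the mitochondrial HSP70 and the other common reporter of the mtUPR, showed no called difference and its groups overlapped. It had 924, 884 and 661 CPM in untreated mutants, against 667, 654 and 398 CPM in untreated N2 (log2 fold change 0.52, 95% interval -0.03 to 1.08, edgeR adjusted p = 0.233), and the heat-shocked groups differed by 0.04.

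*ubl-5*, the gene of the partner of DVE-1, could not be compared with useful precision. It had 46.8, 24.8 and 33.7 CPM in heat-shocked mutants (35.1 ± 11.1, SD, n = 3) and 36.4, 27.7 and 76.5 CPM in untreated mutants (46.9 ± 26.0). It had 181, 39.0 and 35.6 CPM in heat-shocked N2 (85.1 ± 82.7) and 31.9, 34.3 and 105 CPM in untreated N2 (57.0 ± 41.4). In 3 of the 4 groups a lone library was far above the other 2. The SD of *ubl-5* within groups, 0.93 on the log2 scale, was above that of 95.3% of the 12644 genes with a mean of at least 1 CPM. The log2 fold change in mutants against N2 was -0.28 at 20 °C (95% interval -1.63 to 1.07) and -1.28 after heat shock (-2.64 to 0.09, edgeR adjusted p = 0.300). Leaving out N2 heat shock replicate 1 brought the second value to -0.24. The log2 effect of heat shock was -0.42 in the mutants (-1.77 to 0.93) and 0.58 in N2 (-0.77 to 1.93).

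The libraries in which *ubl-5* was high were those with more reads on short transcripts. For each library, the median deviation from the group mean was taken over 394 genes with under 500 bp of exon and over 1191 genes with at least 3000 bp, all with a mean of at least 10 CPM, and the second was subtracted from the first. This shift, on the log2 scale, was 1.24 in N2 control replicate 3 and 0.90 in N2 heat shock replicate 1, which are the libraries with 105 and 181 CPM of *ubl-5*. It was 0.37 in sy441 control replicate 3, in which *ubl-5* had 76.5 CPM, and between -0.69 and 0.26 in the other 9. Within groups, the deviation of *ubl-5* had a correlation of 0.891 with the shift over the 12 libraries. For the longer *spg-7*, *atfs-1*, *hsp-60* and *lonp-1* the correlations were -0.946, -0.856, -0.854 and -0.846, and for *dve-1* it was 0.202. These correlations are descriptions of 12 libraries that share their group means, *ubl-5* is itself a short transcript, and the part of the shift in the differences between groups was not tested.

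**Figure D3:**
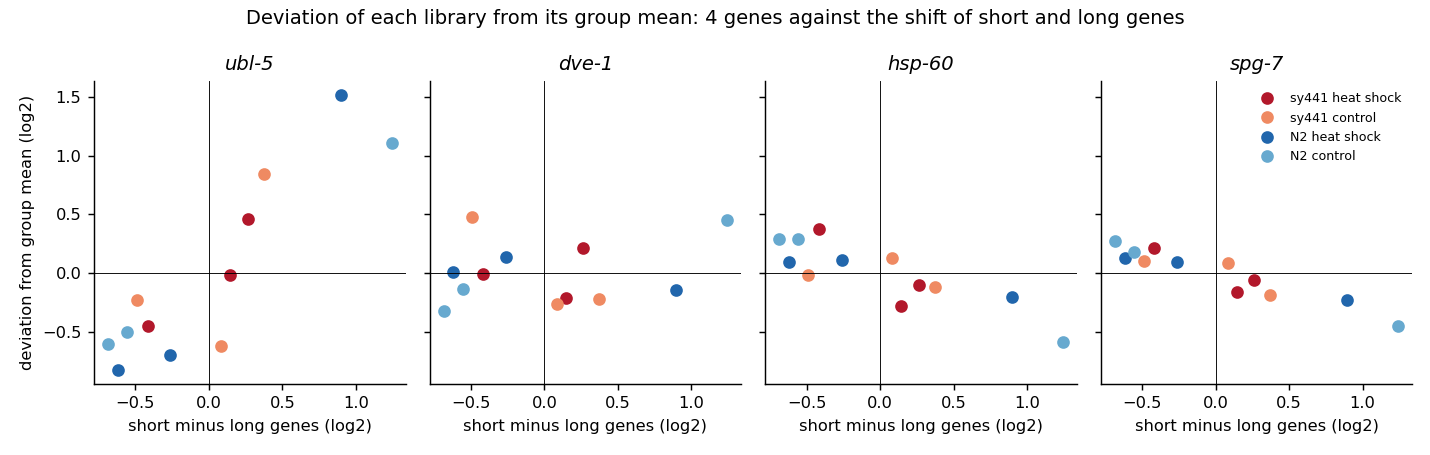
Deviation of *ubl-5*, *dve-1*, *hsp-60* and *spg-7* from their group means (y axis, log2) against the shift of short over long transcripts in the same library (x axis, log2), with 1 dot for each of the 12 libraries. *ubl-5* climbs to the right toward N2 heat shock replicate 1 and N2 control replicate 3 (shifts of 0.90 and 1.24), *hsp-60* and *spg-7* descend, and *dve-1* shows little slope (correlation 0.202).

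The remaining 5 genes gave no call in any comparison. *atfs-1* had 89.95, 112 and 80.5 CPM in heat-shocked mutants and 122, 108 and 95.2 CPM in untreated mutants, against 87.4, 106 and 118 CPM in heat-shocked N2 and 139, 117 and 101 CPM in untreated N2. Its groups overlapped in every comparison, so no difference was detectable in the transcript of the central transcription factor of the response. Of the peptide pathway, *haf-1* averaged 7.84 ± 2.03 CPM (SD, n = 3) in heat-shocked mutants, 10.4 ± 1.61 in untreated mutants, 9.46 ± 1.08 in heat-shocked N2 and 9.76 ± 2.58 in untreated N2. *clpp-1* averaged 45.6 ± 5.93 CPM in heat-shocked mutants, 49.6 ± 10.6 in untreated mutants, 57.1 ± 10.2 in heat-shocked N2 and 51.8 ± 0.807 in untreated N2. Both genes overlapped between all groups that were compared. *lonp-1* averaged 137 ± 25.7 CPM in heat-shocked mutants, 131 ± 10.8 in untreated mutants, 129 ± 34.5 in heat-shocked N2 and 121 ± 24.5 in untreated N2. *spg-7* averaged 118 ± 16.23 CPM in heat-shocked mutants, 124 ± 13.7 in untreated mutants, 118 ± 15.4 in heat-shocked N2 and 106 ± 26.6 in untreated N2. Both proteases were lowest in untreated N2 by mean, with overlapping libraries.

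For these 5 genes the intervals give the size of difference that the data leave room for. At 20 °C the log2 fold changes in mutants against N2 ran from -0.13 (*atfs-1*) to 0.23 (*spg-7*), and the outermost bounds of the 95% intervals were 0.676-fold and 1.61-fold. After heat shock they ran from -0.33 (*clpp-1*) to 0.09 (*lonp-1*), with bounds of 0.549-fold and 1.51-fold. The effect of heat shock ran from -0.40 (*haf-1*) to 0.06 (*lonp-1*) in the mutants, with bounds of 0.500-fold and 1.49-fold. In N2 it ran from -0.20 (*atfs-1*) to 0.15 (*spg-7*), with bounds of 0.642-fold and 1.53-fold. Changes of 2-fold thus lie outside or at the edge of every one of these intervals. The smallest edgeR adjusted p of the 5 was 0.580 in these comparisons at 20 °C and 0.439 after heat shock, and the genes were not called in any alternative analysis. Part of the exons of *haf-1*, 64 bp, overlaps *C30H6.9* on the other strand, and as the strand setting of the counts is not given, its counts are less certain than those of the others.

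Within groups, 5 of the 8 genes deviated in the same direction across libraries and the others did not. The 5 were also the genes with negative correlations with the shift of short over long transcripts (-0.946 to -0.625), and the part of that shift was not tested. Every pair among *hsp-60*, *atfs-1*, *haf-1*, *lonp-1* and *spg-7* had a positive correlation of deviations over the 12 libraries, between 0.478 (*atfs-1* and *haf-1*) and 0.955 (*hsp-60* and *spg-7*), while those of *ubl-5* and *lonp-1* had one of -0.922 and those of *dve-1* and *haf-1* one of -0.770. Among 7603 other genes with a mean of at least 10 CPM, the log2 CPM most like that of *hsp-60* over the 12 libraries were those of *Y18D10A.11* (correlation 0.981), *cpar-1* (0.947), *ztf-28* (0.939), *gln-5* (0.938) and *gtf-2H2C* (0.935). Those most like *atfs-1* were *C18D11.3* (0.955), *yop-1* (0.883), *rcor-1* (0.874), *age-1* (0.872) and *mpk-1* (0.870). None of the other 7 genes of the mtUPR was in either list, and *haf-1*, with a mean of 9.36 CPM, was too low to enter one. These correlations include differences between groups and between libraries that lie apart. Near *dve-1*, the adjacent gene *ZK1193.2*, 1399 bp away on the same strand, was called higher in the mutants at 20 °C (log2 fold change 1.19, edgeR adjusted p = 0.0125), whereas its log2 effects of heat were -0.30 in the mutants and -0.19 in N2, neither called.

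The wider machinery of the mtUPR was read from lists of genes by role. Of 8 further mitochondrial chaperones and cofactors, 0 were called in any of the 4 comparisons by edgeR or DESeq2. Their median log2 fold change in mutants against N2 was -0.38 at 20 °C and -0.27 after heat shock, against 0.13 and 0.04 over all genes. Averaged over both treatments, edgeR called 1 of them, *Y22D7AL.10*, and DESeq2 called 5, all lower in the mutants, beside 5.34% and 9.18% of all genes. At 20 °C, 3 of the 8 were lower in the mutants at an unadjusted p under 0.05, beside 6.51% of all genes. These were the GrpE homolog *C34C12.8* (-0.52), the mitochondrial DnaJ gene *dnj-10* (-0.45) and *bcs-1* (-0.42), which encodes an assembly factor of complex III. Of 9 further mitochondrial proteases, 0 were called by edgeR in the 4 comparisons. Averaged over both treatments, *K07A3.3* was called higher and *immp-2* lower in the mutants (held in 19 and 17 of 21 alternatives), beside 15.2% and 5.34% of all genes. The smallest p at 20 °C was that of *K07A3.3*, at 0.193 to 0.617 CPM in untreated mutants and 0.0528 to 0.0980 CPM in untreated N2 (log2 fold change 2.47, unadjusted p = 0.0154, edgeR adjusted p = 0.108, DESeq2 adjusted p = 0.0406). Of 19 genes of the import machinery, through which ATFS-1 passes, 0 were called by either tool in the 4 comparisons. DESeq2 alone called 2 lower in the average over both treatments, beside 9.18% of all genes. The median of the 19 was -0.23 at 20 °C, and 1, *tin-13*, had an unadjusted p under 0.05 after heat shock (log2 fold change -1.13).

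Among regulators of the response outside the 8 genes, edgeR called 4 of 28 tested higher in the mutants at 20 °C and 0 lower. The share of all genes called higher was 6.24%, and the median of the regulators was 0.02. DESeq2 called 4 higher and 1 lower, beside 10% and 3.19% of all genes. *nhr-80*, a nuclear hormone receptor gene, had 16.7, 6.45 and 7.65 CPM in untreated mutants, against 3.63, 3.19 and 2.47 CPM in untreated N2 (log2 fold change 1.73, edgeR adjusted p = 0.0178). *jmjd-3.1*, the gene of a histone H3 lysine demethylase, had 17.1, 12.1 and 18.2 CPM in untreated mutants, against 8.11, 8.33 and 7.61 CPM in untreated N2 (0.98, edgeR adjusted p = 0.0190). The kinase gene *sgk-1* (1.06, edgeR adjusted p = 0.0349) and the bZIP gene *zip-2* (0.92, edgeR adjusted p = 0.0377) were also called. In all 4 genes the untreated mutant libraries lay above the untreated N2 libraries, as for 20.9% of all genes. None of the 4 calls remained without replicate 1 of both mutant groups, the libraries richest in ribosomal RNA, an omission that left 1.56% of all genes called, and with each alternative in turn they held in 11, 10, 9 and 8 of 16 for *nhr-80*, *jmjd-3.1*, *sgk-1* and *zip-2*. Averaged over both treatments, edgeR called 7 of the 28 higher and 0 lower, beside 15.2% of all genes called higher. DESeq2 called 7 higher and 3 lower, beside 16.7% and 9.18%. The edgeR calls of *nhr-80*, *jmjd-3.1* and *sgk-1* held in 21 of 21 alternatives and that of *zip-2* in 20.

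With heat shock edgeR called 1 of the 28 regulators lower in the mutants and 0 in N2, beside 0.29% and 0.223% of all genes. At an unadjusted p under 0.05, 2 were lower in each genotype and 0 higher, beside 3.84% and 2.55% of all genes lower in the mutants and N2. The regulator called was *zip-3*, whose product represses ATFS-1 in *C. elegans*. It had 11.1, 14.6 and 15.8 CPM in heat-shocked mutants, against 37.5, 29.9 and 30.7 CPM in untreated mutants (log2 fold change -1.24, edgeR adjusted p = 0.0363). It had 9.19, 10.9 and 14.1 CPM in heat-shocked N2, against 25.1, 24.3 and 17.2 CPM in untreated N2 (-0.96, edgeR adjusted p = 0.0936). In both genotypes all heat-shocked libraries lay below all untreated ones, as for 6.68% of all genes in the mutants and 5.84% in N2. The call in the mutants was lost with the replicate block in the fit of all libraries and without any 1 of the 6 mutant libraries, and it held in 9 of 17 alternatives. Averaged over both genotypes, *zip-3* was called lower after heat shock (-1.10, edgeR adjusted p = 0.00277), a call that held in 21 of 21 alternatives. It was the only 1 of the 28 that edgeR called, beside 1.32% of all genes called lower. DESeq2 called 2 lower, beside 2.31%. In this average *zip-3* fell and *dve-1* rose after heat, while *atfs-1* itself overlapped between the groups. For comparison, 17 cytosolic heat shock genes, the classical targets of HSF-1, were read as well. After heat shock edgeR called 9 higher in the mutants and 7 in N2, beside 0.279% and 0.78% of all genes, with medians of 3.49 and 2.73. DESeq2 called 9 higher in each genotype, beside 0.932% of all genes in the mutants and 1.85% in N2. At an unadjusted p under 0.05, 9 were higher in the mutants and 12 in N2, beside 2.98% and 5.34%. Between the heat-shocked groups edgeR called 4 lower in the mutants and 0 higher, beside 0.379% and 2.32% of all genes. The median was -0.67, against 0.04 over all genes. DESeq2 called 5 lower and 2 higher there, beside 1.57% and 6.27%.

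Genes of the organelle that the response serves were read in the same way. Of 59 nuclear genes of the respiratory chain, 3 were called higher in the mutants at 20 °C and 0 lower, a share near the 6.24% of all genes called higher. The clearest was *gas-1*, the gene of a complex I subunit, with 136, 162 and 157 CPM in untreated mutants, against 68.5, 71.8 and 42.4 CPM in untreated N2 (log2 fold change 1.32, edgeR adjusted p = 0.00629, held in 13 of 16 alternatives). It was also called after heat shock, with 103, 157 and 153 CPM in heat-shocked mutants, against 60.1, 62.9 and 64.3 CPM in heat-shocked N2 (1.14, edgeR adjusted p = 0.0197, held in 11 of 16 alternatives). Every mutant library of *gas-1* lay above every N2 library. Within a treatment, 20.9% of all genes separated in that direction at 20 °C and 18% after heat shock. The other calls at 20 °C were *ucr-2.1*, of complex III, and the cytochrome c gene *cyc-2.2*. *ucr-2.1* was at 0.86 (edgeR adjusted p = 0.0303, held in 8 of 16 alternatives). *cyc-2.2* was at 3.36 (edgeR adjusted p = 0.0240, held in 10 of 16) and had at most 3.34 CPM. Averaged over both treatments, edgeR called 6 of the 59 higher and 3 lower, beside 15.2% and 5.34% of all genes. DESeq2 called 6 higher and 4 lower, beside 16.7% and 9.18%. The edgeR calls lower were *cox-11*, *asb-1* and *coq-5*, held in 17, 15 and 20 of 21 alternatives. Of 10 mitochondrially encoded genes, 0 were called in any comparison by edgeR or DESeq2. Their sums were highest in the 2 N2 libraries that lay apart, with 14759, 10538 and 12923 CPM in heat-shocked mutants and 14447, 11856 and 16309 CPM in untreated mutants, against 27590, 9507 and 8309 CPM in heat-shocked N2 and 6349, 6320 and 20056 CPM in untreated N2.

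Of 71 genes of the mitochondrial ribosome, 2 were called lower in the mutants at 20 °C and 0 higher, beside 0.591% of all genes called lower, while 26 were lower at an unadjusted p under 0.05, beside 6.51% of all genes, and DESeq2 called 10 lower, beside 3.19%. Averaged over both treatments, edgeR called 25 lower and DESeq2 35, beside 5.34% and 9.18% of all genes, and 0 higher by either. At 20 °C the median log2 fold change was -0.43, against 0.13 over all genes. The called ones were *mrpl-20*, with 26.3, 36.0 and 36.4 CPM in untreated mutants, against 50.01, 56.9 and 66.4 CPM in untreated N2 (-0.81, edgeR adjusted p = 0.0263), and *mrpl-19* (-0.68, edgeR adjusted p = 0.0411). After heat shock edgeR called 0 and DESeq2 called 3 lower, beside 1.57% of all genes. At an unadjusted p under 0.05, 25 were lower, beside 5.64% of all genes, and the median was -0.41, against 0.04. Without replicate 1 of both mutant groups, 0 were called at 20 °C (median -0.41, against -0.04 over all genes), and without N2 control replicate 3 and N2 heat shock replicate 1, 4 were called lower (-0.28, against 0.28). The median exon length of the list was 763 bp, against 1537 bp for the genes with at least 10 CPM, and the part of the shift between short and long transcripts in these values was not tested. Embryo markers had lower sums in the mutants as well, with 213 to 319 CPM in untreated mutants, against 359.5 to 385 CPM in untreated N2. Of 6 tested, edgeR called 0 at 20 °C, and DESeq2 called 3 lower, beside 3.19% of all genes. At an unadjusted p under 0.05, 3 were lower and 1 was higher, beside 6.51% and 18.1% of all genes. In the average over both treatments edgeR called 2 lower, beside 5.34% of all genes. Sperm, intestine and muscle markers had higher sums in the mutants, as given above, and the part of these tissues in the values of the mitochondrial ribosome was not tested.

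**Figure D4:**
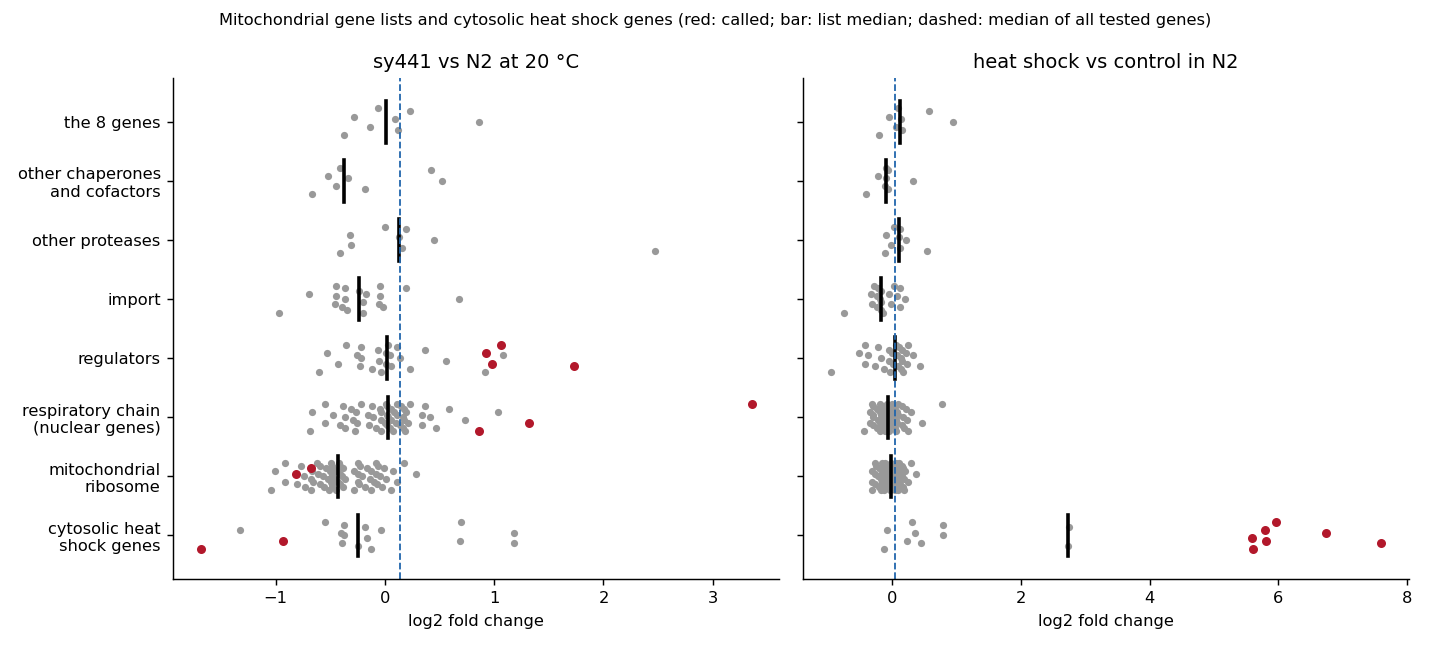
Log2 fold changes of the genes of 8 lists, from the mtUPR genes at the top to cytosolic heat shock genes, in mutants against N2 at 20 °C and in heat shock against control in N2; each dot is a gene, red marks an edgeR adjusted p under 0.05, bars are list medians and the dashed line is the median of all genes (0.13 at 20 °C, 0.05 for heat in N2). The mitochondrial lists hold few red dots, the mitochondrial ribosome lies below the dashed line at 20 °C (median -0.43), and the cytosolic heat shock genes reach far to the right after heat (median 2.73).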

How the data were processed

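Poly-A libraries of 12 samples of whole animals were sequenced as paired-end reads. The values used are the raw read counts per gene deposited by the authors, who list FastQC, HISAT2, HTSeq and edgeR and the WBcel235 build in their processing notes. Versions, annotation release, strand setting and how multi-mapping reads were treated are not given in the sources used here. All 12 count columns were used and none was left out. Gene positions and exon lengths come from the Ensembl release 115 annotation of WBcel235.

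Counts were tested in R 4.3.3 with edgeR 4.0.16 (filterByExpr on the 4 groups, TMM, a quasi-likelihood model of 4 group means over all 12 libraries with legacy=TRUE and robust estimation), and p-values were adjusted by Benjamini-Hochberg over 17946 genes. The threshold for a call was an adjusted p of 0.05. Intervals are 95% intervals from the fitted log2 fold change and its F value. DESeq2 1.42.0, RLE factors, scaling without ribosomal RNA genes, a filter of just 1 count in 1 library, estimation without robustness, legacy=FALSE, a replicate block, only the groups compared and leaving out each library in turn were alternatives. Leaving out the 2 N2 libraries that lay apart or the 2 mutant libraries richest in ribosomal RNA, the 2 averaged contrasts and the fit of the mutant libraries alone with a block were chosen after seeing the data. Scripts were tested on simulated counts. Log2 CPM for correlations used a prior count of 2.

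Only between treated and untreated mutants did same-numbered libraries deviate together in all 3 replicates (correlations of 0.551, 0.504 and 0.320). Numbers were read as pairs there, from the data and not from the labels. Single replicates of other comparisons reached values of like size, up to 0.416. Squared differences between replicates were 15.3 to 270.0 times those of sampling, so no pair was merged. The 8 genes, the lists of genes and the markers were chosen with earlier results of these data known. All 8 genes are named in every comparison. From each list up to 4 called genes, or up to 2 by p, were to be named, and the genes with the most similar levels were listed for *hsp-60* and *atfs-1*. A search of promoters for heat shock elements was not run, since it needs sequence not used here.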

Additional observations from a re-analysis of the deposited data

How the results depend on the processing

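Depth limited none of the 8 genes, and the spread between 3 replicates did. Calls of the 8 genes in mutants against N2 at 20 °C, 0 in the analysis reported, numbered 1 under DESeq2 (*dve-1*), 2 without N2 control replicate 3 and N2 heat shock replicate 1 (*dve-1* and *hsp-60*) and 0 to 1 when single libraries were left out. For heat shock in N2 they numbered 1 under DESeq2. For heat shock in the mutants they numbered 1 under DESeq2, 1 without that pair of N2 libraries, 1 with the replicate block in the mutant libraries alone and 0 to 1 without single libraries. In mutants against N2 after heat shock they numbered 1 under DESeq2, with legacy=FALSE and in a fit of the groups compared (*dve-1*). They numbered 1 without the N2 pair, and that gene was *hsp-60*. Beside these, 7.84%, 5.47%, 3.82% and 3.68% of all genes were called. For heat averaged over genotypes they numbered 0 to 1 without single libraries, against 1. For genotype averaged over treatments they numbered 2, against 1, under DESeq2, RLE factors, no filter, legacy=FALSE, the replicate block and without the N2 pair, and 1 to 2 without single libraries, with *hsp-60* as the gene added. In this contrast 25.9% of all genes were called under DESeq2, 20.6% with RLE factors and 9.92% with no filter. The share was 23.6% with legacy=FALSE, 19.1% with the block, 29% without the N2 pair and 13.6% to 24.3% without single libraries.

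The sign of some small estimates turned. *ubl-5* at 20 °C was 0.50 on the log2 scale without the N2 pair and -1.05 to 0.52 without single libraries, and its effect of heat ran from -0.65 to 1.40 in N2 and from -0.72 to 0.15 in the mutants. The effect of heat on *hsp-60* in N2 was -0.035 in a fit of the N2 libraries alone, -0.084 without the N2 pair, -0.0085 without replicate 1 of both mutant groups, and -0.16 to 0.13 without single libraries. The interaction for *dve-1* was -0.17 without the N2 pair and -0.15 to 0.50 without single libraries. The cause was not tested. *dve-1* kept its direction under every alternative in the other 4 comparisons.

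In the other comparisons, same-numbered libraries did not deviate together in all 3 replicates (correlations of -0.0522, 0.217 and 0.287 at 20 °C, -0.622, 0.392 and -0.559 for heat in N2, and 0.315, 0.416 and -0.0793 after heat shock). The replicate block in the fit of all libraries changed no call of the 8 genes between groups (it added *hsp-60* in the average over treatments, adjusted p = 0.0451), with an adjusted p for *dve-1* of 0.105 at 20 °C, 0.242 for heat in N2, 0.152 for heat in the mutants and 0.0891 after heat shock. The median of all genes at 20 °C was 0.13 with TMM, 0.03 with RLE and 0.05 with DESeq2, and -0.12 to 0.29 without single libraries, while *dve-1* stayed 0.52 to 0.85 above it. The planned promoter search was not run.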

Other observations

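Other lists of organelle and folding genes were read in the same fit. Of 19 genes of prohibitins, cristae, fission, fusion and mitophagy, 1 was called higher after heat shock in N2 and 0 in the mutants, by edgeR and by DESeq2. Over all genes, edgeR called 0.78% and DESeq2 1.85% higher in N2. The gene called is given here with its levels. It was *fis-2*, a homolog of the mitochondrial fission factor FIS1, with 76.0, 65.3 and 59.8 CPM in heat-shocked N2, against 29.1, 27.9 and 33.7 CPM in untreated N2 (log2 fold change 1.15, edgeR adjusted p = 0.0131, held in 10 of 16 alternatives). In the mutants it had 35.5, 41.7 and 51.8 CPM after heat shock, against 28.7, 35.7 and 34.6 CPM without treatment. All heat-shocked N2 libraries lay above all others, but the interaction was not called (-0.77, unadjusted p = 0.0156, edgeR adjusted p = 1). For 8.19% of all genes the heat-shocked N2 libraries lay above the untreated N2 libraries. Of 8 subunit genes of the cytosolic chaperonin, relatives of HSP-60, edgeR called 0 in mutants against N2 after heat shock. At an unadjusted p under 0.05, 3 were lower, beside 5.64% of all genes, and DESeq2 called 3 lower, beside 1.57%. The median of the 8 was -0.53, against 0.04 over all genes. Averaged over both treatments, edgeR called 3 of the 8 lower, beside 5.34% of all genes. Of 11 chaperone genes of the endoplasmic reticulum, edgeR called 1 higher after heat shock in N2 and 0 in the mutants, beside 0.78% and 0.279% of all genes. It was *hsp-4*, the gene of a BiP homolog, with a log2 fold change of 1.48 in N2 (edgeR adjusted p = 0.0301) and 1.19 in the mutants (edgeR adjusted p = 0.107, DESeq2 adjusted p = 0.00563), and the difference between these was not called.

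The genes whose levels were most like those of *dve-1* and *ubl-5*, looked up after their values were seen, were unlike each other. Among 7603 genes, those most like *dve-1* over the 12 libraries were *Y22D7AL.15* (correlation 0.987), *kgb-1* (0.979), *ZK1055.6* (0.971), *unc-64* (0.965) and *lec-11* (0.965). *kgb-1* is the gene of a JNK-like kinase, and *unc-64* is 1 of the 7 neuron markers. Those most like *ubl-5* were *cuc-1* (0.961), *dpm-3* (0.959), *mrps-18A* (0.957), *C31H5.4* (0.955) and *F54C4.4* (0.953), with exon lengths of 183 to 811 bp, all below the median of 1537 bp. These correlations are descriptions of 12 libraries in 4 groups.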
